A study of Mus musculus with 16 samples.

Results

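Transcripts of 10 blood endothelial and angiopoietin genes were examined in abdominal tumors of mice, as 10 of the 22298 genes of the deposited count tables. The genes were chosen by name for their place in the endothelium, with earlier results of these data known. They are the ligands Angpt1 and Angpt2, their receptor Tek and its relative Tie1, the VEGF receptors Kdr and Flt1, the adhesion genes Cdh5 and Pecam1, and the endothelial products Emcn and Vwf. Tumors came from 615-line mice, wild type by the labels and 6 weeks old, which carried 500000 MFC cells injected into the abdominal cavity. MFC is an established mouse forestomach carcinoma line, so that the blood vessels of a tumor were those of the host. The vehicle group (8 tumors) received PBS and the IL-33 treatment group (8 tumors) received the cytokine IL-33 at 20 μg/kg, both into the abdominal cavity every 2 days. The comparison asks how the tumors of mice given IL-33, an alarmin that acts on immune cells, differed from those given PBS. The labels do not tie tumors to mice. The study's methods give fewer mice per group for this model than the 8 tumors, although its survival experiment in the model used more. Some tumors may share a mouse, so p-values measure the spread between these tumors.

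Blood vessels are lined by a single layer of endothelial cells that hold together through VE-cadherin, the product of Cdh5. VEGF-A drives their growth through VEGFR2 (Kdr), while VEGFR1 (Flt1) binds the same ligand tightly and, in its soluble form, acts as a decoy. Angiopoietin-1, made largely by the cells around a vessel, activates the receptor TIE2 (Tek) and keeps the vessel quiet, and angiopoietin-2, stored and released by the endothelium itself, competes with it at sprouting and inflamed vessels, with TIE1 as a co-receptor that modulates TIE2.

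Counted reads totalled 14139268 to 24290794 per vehicle tumor and 16569613 to 24288893 per IL-33 tumor. All 10 genes had reads in all tumors, the lowest count being 10, so that counting error was small beside the spread between tumors except for the least expressed gene, Tek. Reads of 25 of 25 further endothelial genes were also found in every tumor. A single read sufficed, which 14701 to 17425 of the 22298 genes reached per tumor, so this count alone does not show endothelium. Values are counts scaled to the total count of the tumor (CPM), and levels of different genes are compared only after division by the length of their merged exons. IL-33 replicate 7 stood apart from the other tumors before any endothelial gene is considered: 8 genes of the uterus and oviduct summed to 1390 CPM in it and to at most 5.77 CPM elsewhere, 7 ovary genes to 943 CPM against at most 7.97 CPM, and 7 smooth muscle genes to 6360 CPM against at most 409 CPM. Of the 16817 genes tested, 43.0% had their highest level in this tumor, and the comparisons of the 10 genes are therefore given with and without it. Vehicle replicate 4 had the lowest scaling factor (0.64) and the highest summed level of red blood cell genes, 12800 CPM. In bulk tumors, fewer endothelial cells and less RNA per endothelial cell cannot be told apart.

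The upstream sequences of Flt1, Kdr and Tek are shown because the paired VEGF receptors varied differently between tumors and because Tek was the gene raised furthest in IL-33 replicate 7. They are the bases before the annotated start, from RefSeq (GRCm38.p6), written 5′ to 3′ on the strand of the gene. The reference table held 5 of the 10 genes, with 250 bases before the start for each. Capitals mark GGAAG or CTTCC (the core of many ETS sites, on either strand), GATAA or TTATC (the core of GATA sites), TATAAA or TTTATA, and the palindrome TGACGTCA (a CRE). The motifs share no bases with each other here.
Flt1, chr5:147726012-147726261, minus strand: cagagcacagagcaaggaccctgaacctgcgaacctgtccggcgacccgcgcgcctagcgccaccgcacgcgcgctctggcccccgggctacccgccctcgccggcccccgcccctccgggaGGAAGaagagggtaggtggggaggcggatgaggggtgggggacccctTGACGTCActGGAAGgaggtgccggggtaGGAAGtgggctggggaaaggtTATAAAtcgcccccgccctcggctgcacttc
Kdr, chr5:75978459-75978705, minus strand: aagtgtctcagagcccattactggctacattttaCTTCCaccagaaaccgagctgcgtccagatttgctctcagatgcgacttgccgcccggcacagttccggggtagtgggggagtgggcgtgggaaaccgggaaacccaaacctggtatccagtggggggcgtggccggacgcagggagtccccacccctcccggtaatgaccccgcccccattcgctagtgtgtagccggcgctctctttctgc
Tek, chr4:94739039-94739288, plus strand: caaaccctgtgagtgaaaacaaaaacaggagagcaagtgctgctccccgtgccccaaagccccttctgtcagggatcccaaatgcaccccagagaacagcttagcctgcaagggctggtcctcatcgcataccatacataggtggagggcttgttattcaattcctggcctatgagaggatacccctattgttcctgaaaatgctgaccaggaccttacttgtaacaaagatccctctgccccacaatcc
The 250 bases before Flt1 held 3 GGAAG matches, 1 TATAAA and 1 TGACGTCA, those before Kdr held 1 GGAAG match and those before Tek held none of the 4 motifs. The 250 bases before Tie1 and Emcn, which run into the annotated gene and are not printed, held 6 and 2 GGAAG matches. Of all 27025 promoters of the reference table, 63.6% held GGAAG, 23.0% GATAA, 13% TATAAA and 1.62% TGACGTCA in the same length of sequence, so that only the last is rare. A match is a run of letters and not a measured binding site.

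**Figure D1:**
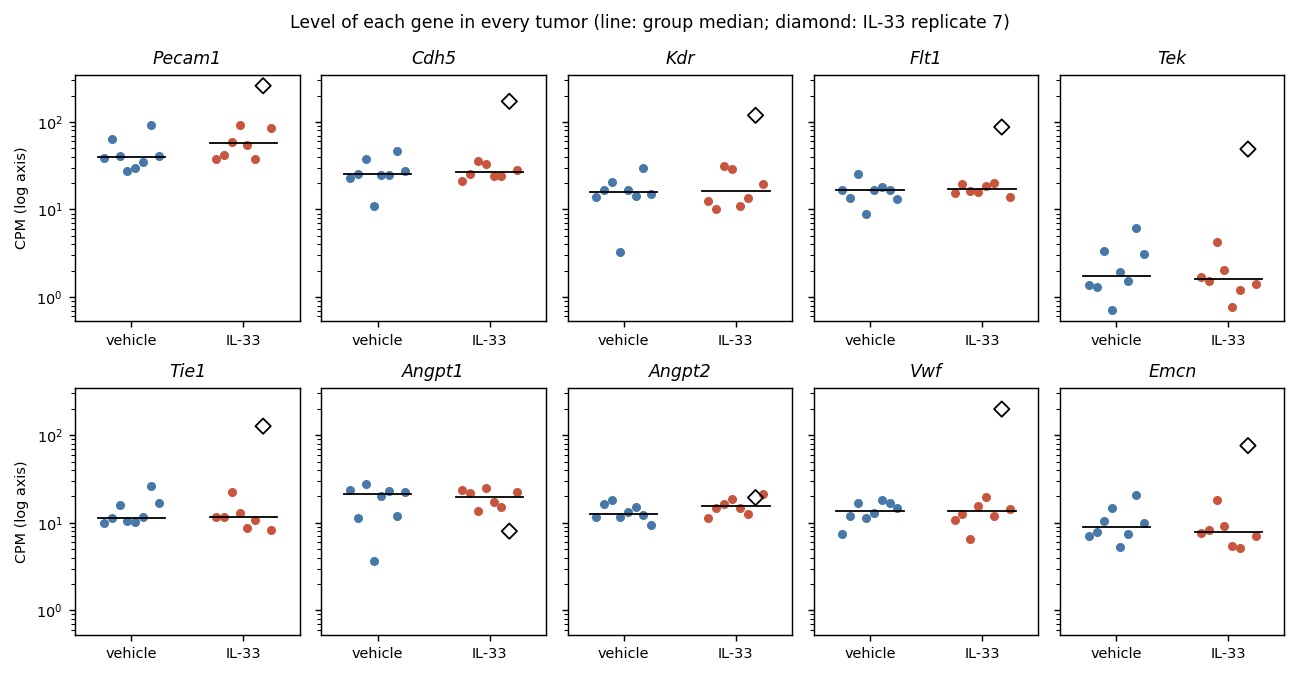
Level of each of the 10 genes in CPM (log axis) by group, 1 point per tumor, with a bar at the group median. IL-33 replicate 7, drawn as a diamond, lies above the other 15 tumors for 8 of the 10 genes, and the remaining tumors of both groups overlap for every gene.

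The angiopoietin ligands did not share the high values of IL-33 replicate 7. Angpt1 (ENSMUSG00000022309, chr15:42424723-42676977, GRCm38) ranged from 3.68 CPM in vehicle replicate 4 to 27.6 CPM (median 21.5 CPM) among vehicle tumors, and from 8.03 to 25.1 CPM (median 19.5 CPM) among IL-33 tumors. The groups overlapped throughout, no IL-33 tumor lay above every vehicle tumor, and the lowest IL-33 value belonged to replicate 7, which ranked 15 of 16. The fitted change was 0.00 on the log2 scale (SE 0.30, 95% interval −0.64 to 0.64, adjusted p = 1.0 in edgeR's quasi-likelihood test with Benjamini-Hochberg adjustment), and 0.13 (SE 0.27) without replicate 7.

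Angpt2, the context-dependent antagonist (ENSMUSG00000031465, chr8:18690263-18741562), was the steadiest of the 10 genes in the vehicle group, with a coefficient of variation of 21.5%. Its levels ran from 9.51 to 18.1 CPM with a median of 12.7 CPM in vehicle tumors and from 11.4 to 21.2 CPM with a median of 15.7 CPM in IL-33 tumors. IL-33 replicates 4, 7 and 8 lay above every vehicle tumor, and 6 of the 8 IL-33 tumors lay above the vehicle mean. The difference was small against its spread, at 0.15 (SE 0.16, 95% interval −0.19 to 0.49, adjusted p = 0.789 by the same edgeR test) with all tumors and 0.16 (SE 0.17) without replicate 7. It was the gene with the lowest p of the 10 in the two-sided exact permutation test of mean log2 CPM (difference 0.26, p = 0.11), and that p was 0.183 without replicate 7. Angpt2 lies within Mcph1, a gene of the other strand with which it shares 0 exon bases.

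Tek, which encodes TIE2 (ENSMUSG00000006386, chr4:94739289-94874976), was the least abundant of the 10 genes. Vehicle tumors held 0.707 to 6.12 CPM with a median of 1.72 CPM, and IL-33 tumors held 0.768 to 49.0 CPM with a median of 1.59 CPM. The 49.0 CPM of IL-33 replicate 7 was 31.8 times the median of the other 15 tumors and 8.01 times the next highest, vehicle replicate 7, while the other 7 IL-33 tumors, at up to 4.21 CPM, all lay below that vehicle tumor. With replicate 7 the fitted log2 change was 1.43 (SE 0.78, adjusted p = 0.528 in edgeR), and without it −0.41 (SE 0.41, 95% interval −1.27 to 0.45, adjusted p = 0.964).

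Tie1, the orphan co-receptor (ENSMUSG00000033191, chr4:118471191-118490061), behaved in the same way at a higher level. It lay between 9.98 and 26.6 CPM (median 11.4 CPM) in vehicle tumors and between 8.36 and 127 CPM (median 11.6 CPM) in IL-33 tumors. Besides IL-33 replicate 7, only vehicle replicate 7 at 26.6 CPM and IL-33 replicate 3 at 22.4 CPM exceeded 20 CPM, so that the high tumors came from both groups. The log2 change was 0.70 (SE 0.49, adjusted p = 0.643 in edgeR) and −0.23 (SE 0.24, adjusted p = 0.964) without IL-33 replicate 7.

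Kdr, which encodes VEGFR2 (ENSMUSG00000062960, chr5:75932827-75978458), ranged from 3.25 CPM in vehicle replicate 4 to 30.1 CPM in vehicle replicate 7, with a median of 16 CPM, and from 10 to 119 CPM with a median of 16.4 CPM in IL-33 tumors. IL-33 replicates 3 (31.0 CPM) and 4 (29.0 CPM) stood beside vehicle replicate 7, and IL-33 replicate 8 held 19.3 CPM. IL-33 replicates 1, 2, 5 and 6, at 10 to 13.4 CPM, lay below every vehicle tumor except replicate 4. The next lowest vehicle tumor, replicate 1, held 13.8 CPM. The log2 change was 0.76 (SE 0.45, adjusted p = 0.563 in edgeR), and 0.13 (SE 0.30, 95% interval −0.51 to 0.77) without replicate 7.

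Flt1, which encodes VEGFR1 (ENSMUSG00000029648, chr5:147561604-147726011), varied little among the IL-33 tumors other than replicate 7. Vehicle tumors held 8.84 to 25.7 CPM with a median of 16.9 CPM, and IL-33 tumors held 13.8 to 87.5 CPM with a median of 17.4 CPM. Apart from replicate 7, the IL-33 tumors spanned 13.8 to 20.2 CPM, a coefficient of variation of 13.7%, the lowest of the 10 genes in those 7 tumors, while that of the vehicle tumors was 30.2%. The log2 change was 0.53 (SE 0.32, adjusted p = 0.578 in edgeR), and 0.06 (SE 0.17, 95% interval −0.30 to 0.41) without replicate 7.

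Cdh5, the junctional cadherin that defines endothelial cells (ENSMUSG00000031871, chr8:104101625-104144511), lay between 11.1 and 46.4 CPM (median 25.3 CPM) in vehicle tumors and between 21.1 and 172 CPM (median 26.8 CPM) in IL-33 tumors. Without replicate 7 the IL-33 tumors lay between 21.1 and 35.4 CPM and hence inside the vehicle range. Their mean of 27.4 ± 5.23 CPM (SD, n = 7) was close to the vehicle mean of 27.6 ± 10.5 CPM (SD, n = 8), and the log2 change moved from 0.57 (SE 0.36, adjusted p = 0.606 in edgeR) to −0.02 (SE 0.18, 95% interval −0.40 to 0.35).

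Pecam1, which encodes the adhesion molecule CD31 of endothelium, platelets and several leukocytes (ENSMUSG00000020717, chr11:106654217-106750628), gave the smallest edgeR p of the 10. Vehicle tumors held 27.8 to 93.3 CPM with a median of 39.8 CPM, and IL-33 tumors held 37.4 to 259 CPM with a median of 56.9 CPM. Only replicate 7 exceeded every vehicle tumor, although IL-33 replicates 4 and 8, at 92.0 and 86.2 CPM, came near the highest of them. The log2 change was 0.70 (SE 0.34, 95% interval −0.01 to 1.41), with an unadjusted p of 0.0531 and an adjusted p of 0.455 in edgeR. Without replicate 7 it was 0.30 (SE 0.24, unadjusted p = 0.232), with 4 of the 7 tumors above the vehicle mean of 46.3 CPM.

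Emcn, a sialomucin of capillary and venous endothelium (ENSMUSG00000054690, chr3:137341067-137432185), ranged from 5.23 to 20.9 CPM (median 8.85 CPM) in vehicle tumors and from 5.14 to 76.2 CPM (median 7.90 CPM) in IL-33 tumors. Vehicle replicate 7 at 20.9 CPM and IL-33 replicate 3 at 18.3 CPM again came next to IL-33 replicate 7, and the groups overlapped. The log2 change was 0.45 (SE 0.51, adjusted p = 0.813 in edgeR), and −0.37 (SE 0.34, 95% interval −1.09 to 0.35) without replicate 7.

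Vwf, the clotting factor carrier stored in endothelium and platelets (ENSMUSG00000001930, chr6:125546774-125686679), held 7.41 to 18.1 CPM (median 13.8 CPM) in vehicle tumors and 6.61 to 199 CPM (median 13.5 CPM) in IL-33 tumors. The value of replicate 7 was 10.1 times that of the next tumor, IL-33 replicate 5 at 19.6 CPM, the widest such gap of the 10 genes. The log2 change of 1.14 (SE 0.57, unadjusted p = 0.0633, adjusted p = 0.48 in edgeR) became −0.12 (SE 0.23, 95% interval −0.60 to 0.36) without it. Genes listed for platelets and megakaryocytes had a summed level of 39.5 CPM in replicate 7, of which Pf4 held 25.6 CPM and Itga2b 10.1 CPM. Their sum was 7.83 to 121 CPM in the other tumors, the highest in vehicle replicate 4, where Vwf was 11.4 CPM. The part of platelets in the level of Vwf was not tested.

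Across the 10 genes, 0 had an adjusted p under 0.05 in edgeR, as did 0% of the 16817 genes tested, and at an unadjusted p under 0.05 the calls were 0 of the 10, against 9.99% of all genes higher and 1.17% lower with IL-33. The fitted change was at or above 0 for 10 of 10 genes with a median of 0.63, beside a median of 0.06 over all genes tested. Without IL-33 replicate 7, adjusted calls were again 0 of the 10 and 0% of the 15803 genes tested. Unadjusted calls were 0 of the 10, against 1.83% of all genes higher and 2.29% lower. The fitted change was then positive for 5 of the 10 genes, with a median of 0.02 beside −0.01 over all genes. The genes whose change turned from positive to negative were Cdh5, Tek, Tie1, Vwf and Emcn. The smallest adjusted p over all genes was 0.418 with and 0.964 without that tumor.

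**Figure D2:**
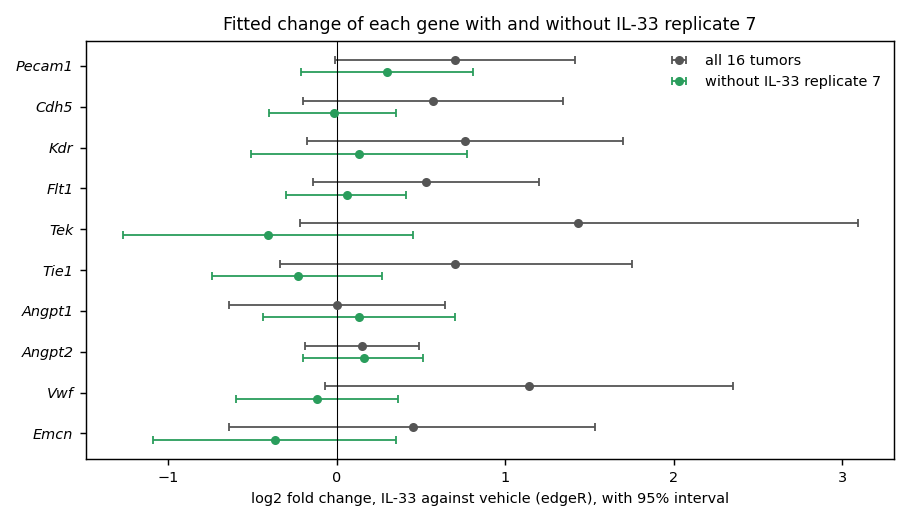
Fitted log2 fold change of each gene, IL-33 against vehicle, from edgeR with its 95% interval (horizontal axis), with all 16 tumors and without IL-33 replicate 7. All 20 intervals include 0, and 8 of the 10 points move toward or past 0 when the tumor is left out.

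Per kilobase of exon, the vehicle medians ordered the genes as Pecam1 (6.39 CPM per kb), Cdh5 (6.01), Angpt1 (4.14), Angpt2 (3.44), Tie1 (2.33), Kdr (1.77), Emcn (1.64), Flt1 (1.25), Vwf (0.858) and Tek (0.366). On this scale Cdh5 exceeded Angpt1 in 8 of 8 tumors of each group, and Tie1 exceeded Kdr in 8 of 8 vehicle and 6 of 8 IL-33 tumors. Neighbours that did not separate were Pecam1 and Cdh5 in the vehicle group (5 of 8 tumors), Kdr and Emcn (5 of 8 in each group), and the ligands, where Angpt1 exceeded Angpt2 in 5 of 8 vehicle and 2 of 8 IL-33 tumors.

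The excess in IL-33 replicate 7 was shared by most of the endothelial genes examined, but not by each vascular list. Of the 10 genes, 8 were highest in it, by 5.19 times (Flt1) to 31.8 times (Tek) the median of the other 15 tumors, while Angpt2 was at 1.32 times and Angpt1 at 0.369 times that median. Over the 13109 genes with a mean of at least 1 CPM, 14.6% exceeded 5 times that median in this tumor. Of all genes tested, 43.0% were highest in it, so a list count near that share does not set the list apart. Of 25 other endothelial genes, 24 were highest there, and their summed level was 2220 CPM against 201 to 511 CPM in vehicle tumors and 186 to 481 CPM in the other IL-33 tumors. The 6 genes of lymphatic endothelium summed to 242 CPM against at most 96.4 CPM, and 9 pericyte genes to 739 CPM against at most 472 CPM. Arterial and venous genes (619 CPM) and Notch and sprouting genes (329 CPM) also had their highest sums there. So did 4 further genes of the TIE pathway (252 CPM). The remaining vascular lists were split. Leukocyte adhesion genes summed to 213 CPM, rank 15 of 16, with Sele and Vcam1 at 0.163 and 0.271 times the median of the other tumors. The other 3 of those 5 genes were highest there: Selp (8.15 times), Icam1 (6.44 times) and Ackr1 (21.6 times). VEGF ligands and co-receptors summed to 435 CPM, at rank 7, with 4 of 8 genes highest there, near the share of all genes. Of the 9 Notch and sprouting genes 6 were highest there, while Apln was at 0.253 times the median of the other tumors. Leukocyte genes stood at 506 CPM, within the 224 to 1270 CPM of the other tumors. IL-33 replicate 7 also had the highest sums of the uterus and oviduct, ovary, smooth muscle and adipose genes (the last 1100 CPM against at most 65.9 CPM). Its red blood cell genes, at 2840 CPM, were the second highest of the 16 tumors. Vehicle replicate 4, highest in red blood cell genes (12800 CPM), had the lowest sum of the 10 genes, 103 CPM. The part of these tissues in the endothelial levels was not tested. Without IL-33 replicate 7 the groups' values are those given above.

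**Figure D3:**
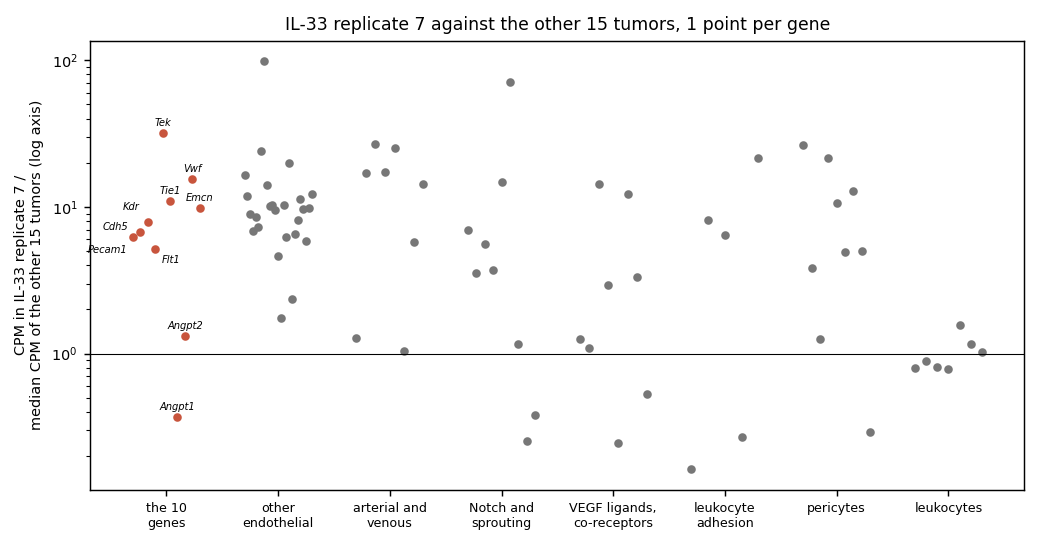
Level in IL-33 replicate 7 divided by the median level of the other 15 tumors (log axis), 1 point per gene, for the 10 genes and 7 lists of vascular and blood genes (genes with a median of 0 CPM are not drawn). The line marks equal levels, 8 of the 10 genes lie above 5 and the leukocyte genes lie near 1.

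Ratios of CPM + 0.5 within a tumor were compared for 3 pairs: ligand to ligand, VEGF receptor to VEGF receptor and TIE to TIE. The added 0.5 matters for Tek, which was near 1 CPM in several tumors: in vehicle replicate 4 the log2 ratio of Tie1 to Tek was 3.20, where the plain ratio was 15-fold. The log2 ratio of Angpt2 to Angpt1 ran from −1.21 to 1.53 in vehicle tumors and averaged −0.24 ± 0.90 (SD, n = 8), against −0.13 ± 0.67 (SD, n = 8) in IL-33 tumors. It was highest in vehicle replicate 4 (1.53) and IL-33 replicate 7 (1.22), the tumors that stood apart in other respects, and lay between −1.04 and 0.28 in the other IL-33 tumors. The difference of 0.11 had an adjusted p of 0.776 over the 3 ratios in a two-sided exact permutation test.

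The log2 ratio of Flt1 to Kdr averaged 0.11 ± 0.62 in the vehicle group and −0.02 ± 0.73 in the IL-33 treatment group (SD, n = 8 each), with an exact permutation p of 0.707 before and 0.776 after adjustment. The ratio of Tie1 to Tek averaged 2.44 ± 0.39 and 2.37 ± 0.46, with an exact permutation p of 0.766 before and 0.776 after adjustment. Each of the 3 ratios was above the vehicle mean in 4 of 8 IL-33 tumors. Without replicate 7 the differences were −0.08, −0.07 and 0.08 in the order given, each with an adjusted exact permutation p of 0.851. The ratio of Tie1 to Tek was lowest of all tumors in IL-33 replicate 7, where it was 1.37 (2.6-fold) against 2.22 to 2.86 in the other IL-33 tumors, since Tek exceeded its usual level further than Tie1 did.

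**Figure D4:**
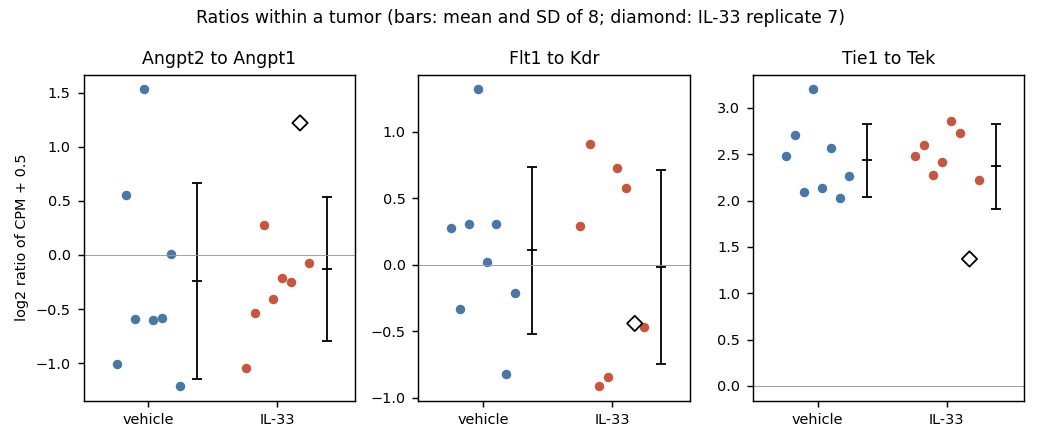
Log2 ratio of CPM + 0.5 between paired genes within each tumor (vertical axis) by group, 1 point per tumor, with bars at the group mean and SD over 8 tumors. IL-33 replicate 7, a diamond, has the lowest Tie1 to Tek ratio, and the group means differ by 0.11, −0.13 and −0.07.

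The genes differed in how closely they followed Cdh5 from tumor to tumor. Over the 15 tumors without IL-33 replicate 7, Pearson's r of log2(CPM + 0.5) with Cdh5 was 0.93 for Kdr, 0.81 for Tek, 0.66 for Pecam1, 0.64 for Tie1, 0.61 for Flt1, 0.29 for Emcn and 0.20 for Vwf, and Spearman's rho was 0.87, 0.76, 0.72, 0.66, 0.12, 0.55 and 0.37 in the same order. With that tumor r was higher for each of these, at 0.77 (Emcn) to 0.95 (Kdr and Tek). Leaving out also vehicle replicates 4 and 7, the tumors with the most extreme Cdh5, r was 0.80 for Kdr, 0.73 for Tek, 0.45 for Pecam1, 0.67 for Tie1, 0.27 for Flt1, 0.72 for Emcn and 0.03 for Vwf. The paired VEGF receptors thus differed on this measure: Kdr followed Cdh5 and the relation of Flt1 rested on a few tumors. Angpt1 had an r of 0.08 and Angpt2 of 0.60 in those 13 tumors. The values of a tumor share its library and total count, and the coefficients are a description.

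Among 13109 genes with a mean of at least 1 CPM, those most like Cdh5 over the 16 tumors by Spearman's rho were Cd200 (0.953), Epb41l3 and Olfml2b (0.938 each), Gpc4 (0.926), Gstt3 and Myh10 (0.921 each), Armcx3, Hpgds and Ticam2 (0.915 each) and Sall2 (0.912). None of these 10 was on a list of endothelial genes. Without replicate 7 their rho lay between 0.893 and 0.943. In the same ranking Kdr stood at 15, Tek at 175, Pecam1 at 279, Tie1 at 530 and Emcn at 1126. Angpt2 stood at 1155, Vwf at 2554, Flt1 at 5309 and Angpt1 at 9850. Without replicate 7 the ranks were 16, 234, 395, 803, 1929, 1760, 4065, 7277 and 7591 in the same order.

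Leukocyte abundance varied widely and moved with some of the genes. The summed level of 7 leukocyte genes was highest in IL-33 replicate 4 (1270 CPM), vehicle replicate 7 (1220 CPM), IL-33 replicate 3 (1130 CPM) and IL-33 replicate 8 (1090 CPM), and at most 751 CPM in the other tumors. Pecam1 was above its vehicle mean in each of these (92.0, 93.3, 58.8 and 86.2 CPM), whereas Tie1 was high in vehicle replicate 7 and IL-33 replicate 3 (26.6 and 22.4 CPM) and not in IL-33 replicates 4 and 8 (13.1 and 8.36 CPM). With the leukocyte gene Ptprc, chosen after the values were seen, Pecam1 had r = 0.89 and rho = 0.81 over 15 tumors, Kdr 0.83 and 0.64, Cdh5 0.73 and 0.48, Tie1 0.28 and 0.04, and Emcn 0.16 and 0.10. Flt1 had r = 0.14 and rho = −0.28. With IL-33 replicate 7 included, r was 0.51 for Pecam1, 0.50 for Kdr and 0.30 for Cdh5. Without vehicle replicate 4 and IL-33 replicate 4, the tumors farthest in Ptprc, as well as replicate 7, r was 0.88 for Pecam1, 0.62 for Kdr, 0.47 for Cdh5, 0.53 for Emcn and −0.53 for Flt1. The part of leukocytes in the levels of Pecam1 was not tested.

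The ratio of the VEGF receptors also moved with the leukocyte genes. Over the 15 tumors the log2 ratio of Flt1 to Kdr had r = −0.86 and rho = −0.84 with the log2 summed leukocyte level, and r = −0.79 and rho = −0.77 without vehicle replicate 7 and IL-33 replicate 4. With all 16 tumors r was −0.83 and rho −0.84. It was −0.82 in vehicle replicate 7 and −0.91, −0.84 and −0.47 in IL-33 replicates 3, 4 and 8. In the tumors with the lowest leukocyte sums it was 0.58 (IL-33 replicate 6, 224 CPM) and 1.32 (vehicle replicate 4, 290 CPM). The relation was looked for after the values were seen and is a description of these tumors.

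**Figure D5:**
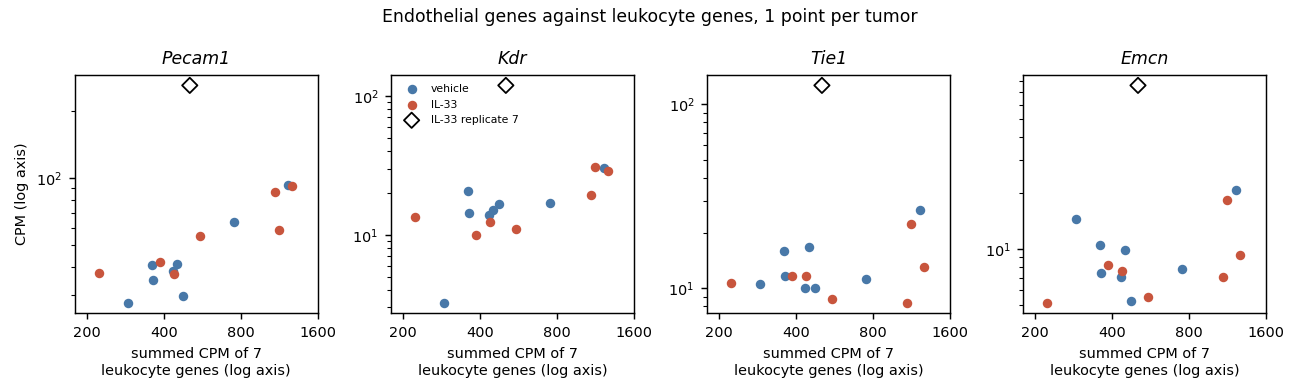
Level of Pecam1, Kdr, Tie1 and Emcn in CPM against the summed CPM of 7 leukocyte genes, both on log axes, 1 point per tumor and coloured by group. In the 4 tumors with the highest leukocyte sums (1090 to 1270 CPM), Pecam1 lies at 58.8 to 93.3 CPM, while Tie1 is at 26.6 and 22.4 CPM in 2 of them and at 13.1 and 8.36 CPM in the other two.

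The other genes of the angiopoietin and VEGF pathways gave 0 calls at an unadjusted p under 0.05 in edgeR, while DESeq2 gave 1, Vegfc, as lower. At that threshold DESeq2 called 267 of all 16817 genes lower and 424 higher. Of the 4 further genes of the TIE pathway, Foxo1, the transcription factor that TIE2 signalling holds out of the nucleus, averaged 25.3 ± 8.36 CPM in vehicle tumors and 29.5 ± 11.1 CPM in the IL-33 tumors without replicate 7 (SD, n = 8 and n = 7), and the median change of the 4 went from 0.66 to 0.00 when that tumor was left out. Among 8 VEGF ligands and co-receptors, Nrp2, a co-receptor, was the most abundant with 188 ± 59.7 CPM in vehicle and 174 ± 39.9 CPM in IL-33 tumors (SD, n = 8 each), or 184 ± 31.6 CPM without replicate 7, and the median change went from 0.12 to −0.28. In edgeR calls were 0 of 4 and 0 of 8 without that tumor as well.

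Lists of vessel subtypes gave few calls in edgeR, and those higher with all tumors were not called without replicate 7. For these and the following lists, the share of all genes tested was 9.99% higher and 1.17% lower with all tumors. Without replicate 7 it was 1.83% higher and 2.29% lower. Of the 25 other endothelial genes, 1 was higher at an unadjusted p under 0.05 with all tumors (Sox17, a transcription factor of arterial endothelium, at 112 CPM in replicate 7 and 1.44 CPM in the vehicle mean) and 1 lower without it (Arhgef15). The median change of the list was 0.66 and −0.22. The fenestral diaphragm gene Plvap, the most abundant of them, averaged 52.1 ± 27.2 CPM in vehicle tumors and 49.4 ± 20.2 CPM in the other 7 IL-33 tumors.

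Of 9 Notch and sprouting genes, 2 were higher with all tumors (Notch1 and Hey2) and 0 without replicate 7, with a median change of 0.34 and −0.01. Apln, the ligand of sprouting tip cells and the most abundant of them, averaged 68.9 ± 32.7 CPM in vehicle tumors and 73.0 ± 17.0 CPM in IL-33 tumors without replicate 7, where it was 18.2 CPM. Of 8 arterial and venous genes and 5 leukocyte adhesion genes, 0 were called in either direction by edgeR with or without that tumor, and with all tumors DESeq2 called 1, Selp, as higher. Their medians were 0.91 and −0.23 for the former, and 0.71 and 0.30 for the latter. Nr2f2, a regulator of venous identity, averaged 114 CPM in both groups, and Vcam1, an endothelial and stromal adhesion receptor for leukocytes, averaged 243 ± 89.7 CPM in vehicle tumors and 271 ± 103 CPM in IL-33 tumors, or 299 ± 69.1 CPM without replicate 7.

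Of 6 genes of lymphatic endothelium, 1 was higher with all tumors (Reln), and 2 were lower without replicate 7 (Mmrn1 and Pdpn). The median change was 1.31 and −0.82. Lyve1, the hyaluronan receptor of lymphatic vessels and of some macrophages, averaged 28.4 ± 22.6 CPM in vehicle tumors and 15.3 ± 11.0 CPM in the other 7 IL-33 tumors. The genes named here for a single call were picked after their values were seen.

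Among the genes of vascular support cells, Cspg4 had the smallest p of its list both with and without replicate 7. Cspg4, which encodes the NG2 proteoglycan of pericytes and is also made by other stromal and tumor cells, lay between 29.9 and 73.0 CPM in vehicle tumors and, apart from replicate 7 at 42.6 CPM, between 16 and 34.1 CPM in IL-33 tumors. The ranges overlapped slightly. The log2 change was −0.78 (SE 0.19, unadjusted p = 0.000782, adjusted p = 0.418 in edgeR), and −0.83 (SE 0.20, adjusted p = 0.964) without replicate 7, so that it did not pass the adjustment in either fit. Of the 9 pericyte genes, 1 was higher and 2 lower with all tumors and 0 higher and 1 lower without that tumor, with a median change of 0.10 and −0.28. Ndufa4l2, the most abundant, averaged 105 ± 118 CPM and 54.9 ± 21.9 CPM (SD, n = 8 each), the latter 60.1 ± 17.5 CPM without replicate 7. Its vehicle values ran from 26.2 to 391 CPM. It was called lower with all tumors (unadjusted p = 0.0477 in edgeR) and was not called without vehicle replicate 4.

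Red blood cell genes gave 0 adjusted calls in edgeR, and their unadjusted calls depended on the tumors kept. Their summed level ran from 171 to 1080 CPM in the vehicle tumors other than replicate 4 (12800 CPM), and IL-33 tumors other than replicate 7 (2840 CPM) held 51.2 to 347 CPM. Of the 6 genes, edgeR called 4 lower at an unadjusted p under 0.05 with all tumors (median change −2.34), 5 without IL-33 replicate 7 (−3.63), 0 without vehicle replicate 4 (−0.53) and 4 without both (−1.90). The hemoglobin genes Hba-a1, Hbb-bs and Hbb-bt had changes of −3.10, −2.49 and −2.39 with all tumors and of −4.59, −3.85 and −4 without replicate 7, and since near-identical copies can split reads they are uncertain as single genes. Of the 9 tested genes of platelets and megakaryocytes, 1 was lower (Gp1bb, at 10 CPM in vehicle replicate 4), with a median change of −0.38, and 0 were called without that tumor. Gp1bb was also the 1 call without IL-33 replicate 7, where the median was −0.58. Pf4, the most abundant platelet gene, averaged 32.3 ± 27.2 CPM and 19.1 ± 13.7 CPM (SD, n = 8 each). The 7 leukocyte genes gave 0 calls with or without replicate 7, with median changes of 0.25 and 0.34. The median change of the 10 endothelial and angiopoietin genes was 0.62 without vehicle replicate 4.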

How the data were processed

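Poly(A) RNA of 8 vehicle and 8 IL-33 tumors was sequenced. The authors deposited, per tumor, raw read counts per gene. Per the submitters' processing notes HISAT2, featureCounts and mm10 were used; versions, annotation and use of strand are not given in the sources used here, so reads of overlapping genes may be shared. Groups were taken from the labels. Symbols, coordinates and exon lengths came from GENCODE M21 (GRCm38), which named 22255 of the 22298 identifiers (the other 43 held 0.00434% of counts and were kept). No pair of tumors was alike within counting error.

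Genes were kept at 10 or more counts summed over the tumors, which left 16817, and tested with edgeR 4.0.16 (R 4.3.3), TMM scaling, glmQLFit, glmQLFTest and Benjamini-Hochberg adjustment over all genes tested, and again without IL-33 replicate 7 (15803 genes). Single genes and ratios were compared on log2(CPM + 0.5) by two-sided exact permutation tests (12870 assignments with 16 tumors, 6435 with 15). CPM used the total count. The CPM of genes of different length were divided by merged exon length.

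The 10 genes, the gene lists and the tests were chosen with earlier results of these data known. Named besides the 10 were, per list, up to 3 genes with an unadjusted p under 0.05 both with and without IL-33 replicate 7 and the gene of highest mean CPM, as far as a result turned on them, and the 10 genes most like Cdh5. Any further gene was picked after its values were seen. The lists of epithelium and mesothelium were computed and are given in the closing section. Alternatives were DESeq2 1.42.0, limma 3.58.1 voom with sample quality weights, upper-quartile scaling, filterByExpr, no filter, robust quasi-likelihood, a replicate block, other pseudocounts, and each tumor left out. On counts simulated for this comparison over 16487 genes, edgeR recovered 40 of 100 genes changed 2-fold and 86 of 100 changed 4-fold, with 12 false calls. The simulated counts held no tumor that stood apart as IL-33 replicate 7 did, and only genes above a minimum mean count were changed. These rates therefore do not measure recovery in the real tumors.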

Additional observations from a re-analysis of the deposited data

Results flagged for a closer look

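In 26 groups of 8 values (the 10 genes and 3 ratios in each group), 10 held 1 tumor farther from the rest than Dixon's 95% limit, where chance gives about 1 in 20 for a single group of normal values. The groups share tumors and genes, so the count of 10 cannot be set against that rate. In 8 of the 10 it was the CPM of IL-33 replicate 7: Pecam1 (259), Cdh5 (172), Kdr (119), Flt1 (87.5), Tek (49.0), Tie1 (127), Vwf (199) and Emcn (76.2). In that tumor the log2 ratio of Tie1 to Tek was also far from the rest, at 1.37. In the vehicle group the Tie1 level of replicate 7, 26.6 CPM, was far from the other 7 tumors. Neither angiopoietin ligand was far from its group in any tumor.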

How the results depend on the processing

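No call of the 10 genes passed adjustment under any alternative. The number with an unadjusted p under 0.05 was 0 in the main comparison. It was 1 (Pecam1, higher) with DESeq2, with no filter on low counts and with the replicate block. Of all genes, 424 of 16817, 1848 of 18774 and 246 of 16817 were higher in those fits, in that order. With 1 tumor left out the number was 0 to 2. The 2 were Pecam1 and Vwf without IL-33 replicate 1, 2 or 3 and Pecam1 and Tek without vehicle replicate 7. Without those IL-33 replicates in turn, 1900 of 16780, 1902 of 16796 and 1856 of 16784 genes were higher. Without vehicle replicate 7, 1688 of 16764 were. Same-numbered deviations correlated between −0.358 and 0.399, and 2 vehicle tumors correlated best with their own number. These values do not settle whether the replicate numbers pair the tumors. With the replicate block the log2 change of Pecam1 was 0.55 (unadjusted p = 0.020). Signs turned with DESeq2, which replaces single far counts, for Cdh5 (−0.04), Tek (−0.42), Tie1 (−0.24), Vwf (−0.12) and Emcn (−0.39). With voom and quality weights they turned for Cdh5 (−0.05), Kdr (−0.15), Flt1 (−0.02), Tek (−0.42), Tie1 (−0.16) and Emcn (−0.03). Added after the data were seen, edgeR without IL-33 replicate 7 and vehicle replicate 4 gave Cdh5 −0.10, Kdr −0.0039, Tek −0.52, Tie1 −0.20, Angpt1 −0.0008, Vwf −0.07 and Emcn −0.14, and DESeq2 without IL-33 replicate 7 gave Cdh5 −0.03, Tek −0.43, Tie1 −0.25, Vwf −0.13 and Emcn −0.40. With 1 tumor left out the log2 change spanned −0.02 to 0.70 for Cdh5, −0.41 to 1.76 for Tek, −0.23 to 0.87 for Tie1, −0.13 to 0.13 for Angpt1, −0.12 to 1.27 for Vwf and −0.37 to 0.65 for Emcn. The difference of mean log2 CPM spanned −0.25 to 0.51 for Tek, −0.17 to 0.39 for Tie1, −0.14 to 0.30 for Angpt1, −0.08 to 0.60 for Vwf and −0.24 to 0.31 for Emcn, the low end being without IL-33 replicate 7 except for Angpt1. The ratio differences spanned −0.08 to 0.37 for Angpt2 to Angpt1, −0.26 to 0.04 for Flt1 to Kdr and −0.14 to 0.08 for Tie1 to Tek, and the last was −0.75 from group means. The reads behind Tek limit it most, at 10 in the lowest tumor.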

Other observations

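The endothelial genes were set beside tissues that a tumor of the abdominal cavity can carry. Mesothelial genes were split in IL-33 replicate 7. Msln was at 92.5 CPM there against a vehicle mean of 617 CPM, which made the sum of the 5 genes, 318 CPM, the lowest of the 16 tumors, while the other 4 genes were highest there, with Wt1 at 139 CPM against a vehicle mean of 1.5 CPM. The 9 epithelial genes summed to 875 CPM there, within the 238 to 1550 CPM of the other tumors, while Epcam stood at 98.8 CPM against a vehicle mean of 0.337 CPM and Cdh1 at 104 CPM against 1.74 CPM. Krt8, a keratin of simple epithelium, was at 224 CPM there and averaged 543 ± 231 CPM in vehicle tumors. Krt18 was at 159 CPM there and at 0.614 ± 0.617 CPM in vehicle tumors, and the smooth muscle genes Cnn1 and Actg2 were at 362 and 359 CPM there against vehicle means of 0.898 and 2.65 CPM. Without that tumor their edgeR log2 changes were −2.27, −1.88 and −2.25 (unadjusted p = 0.00531, 0.0491 and 0.019, adjusted p = 0.964 each). The means of the other IL-33 tumors were low, at 0.132, 0.259 and 0.586 CPM. In that fit, 1 of 7 epithelial and 2 of 7 smooth muscle genes tested were lower, against 2.29% of all genes. Epcam, Cdh1 and Wt1 were picked after their values were seen.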
